A study of Sus scrofa with 220 samples.

Results

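NODAL and GDF3 are ligands of the TGFβ superfamily, and their transcripts were followed here across the early lineages of the pig embryo. These 2 genes were taken from 22840 gene entries. GDF3 was found by its pig symbol (Ensembl entry ENSSSCG00000000669), and NODAL by a row that the authors had added to the annotation under the name Nodal. The data are Smart-seq2 libraries of 220 single cells from 28 embryos of artificially inseminated pigs, with 7 cell type labels. No embryo was treated, and the labels give the animals only as generic pig. There were 47 morula cells from 8 embryos and, from early blastocysts (EB), 24 inner cell mass (ICM) cells of 7 embryos and 28 trophectoderm (TE) cells of 10 embryos. Late blastocysts (LB) gave 25 epiblast (EPI) cells of 4 embryos and 36 hypoblast (HYPO) cells of 5 embryos. Spherical embryos (Sph) gave 48 EPI cells of 4 embryos and 12 HYPO cells of 3 embryos. Embryonic discs of LB were freed of trophectoderm by immunosurgery, EPI and HYPO of Sph were separated by hand, and no TE was collected at either stage. Embryos are named by the letters that open the cell identifiers (AN, AO, C, D and so on), and 1 morula cell had no embryo. The study inferred the sex of each cell from Y-chromosome expression. By that account LB HYPO and EB TE cells were mostly female and LB EPI cells nearly even. Morula, EB ICM and Sph EPI cells were mostly male and Sph HYPO cells all male. Comparisons with LB HYPO thus differ in sex as well as in lineage or stage. So do EB ICM against EB TE, and LB EPI against EB ICM or Sph EPI. The part of sex was not tested. The study also clustered the cells on all expressed genes and read lineages from known markers. A difference in a ligand between EPI and HYPO is therefore not independent of the labels.

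Nodal signals through type I and type II activin receptors together with a co-receptor of the EGF-CFC family, and the signal is carried into the nucleus by SMAD2 and SMAD3 with SMAD4 and FOXH1. In the mouse epiblast, Nodal maintains pluripotency before gastrulation, patterns the visceral endoderm and is needed for the primitive streak. GDF3 is a related ligand of pluripotent cells that can use the same receptors and co-receptor.

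Cells held from 1012604 to 5696373 counts, with a median of 2006854, and the medians of the cell types lay between 1660325 and 2235586. Levels are given in TPM, a transcript abundance that corrects for gene length and depth, and a cell was counted as holding a transcript where its TPM was over 1. The NODAL row held only even counts, as did all 13 added rows with any count, so each fragment appears to have been counted as 2. Among 10771 other genes counted in at least 20 cells, none was even throughout, and the median gene had odd counts in 52.0% of its cells. For this reason, NODAL TPM was divided by 2 where its size was compared with that of GDF3, and lower bounds were computed in fragments. Elsewhere, including all counts of cells over 1 TPM, NODAL was used as deposited unless stated. Sph EPI cell C31, at 1.09 TPM, would be at 0.544 if divided and would then not be counted. Marker genes fitted the EPI and HYPO labels. Summed TPM of 7 epiblast markers was 252 to 2539 in Sph EPI cells and 0 to 96.5 in Sph HYPO cells. That of 8 hypoblast markers was 815 to 4522 in Sph HYPO cells and 0 to 118 in Sph EPI cells. The median summed TPM of 3 blood cell markers was 0 in every cell type, though single cells held some. PTPRC was at 0 in every cell type. CD53 was over 1 TPM in 10 morula, 3 EB ICM and 1 Sph HYPO cells, among others, and LAPTM5 in 2 Sph HYPO cells. The highest sum in Sph HYPO, 167 TPM, was in a cell with NODAL.

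NODAL transcripts were found in 3 of the 7 cell types. No count was present in any of the 47 morula cells, 24 EB ICM cells, 28 EB TE cells or 36 LB HYPO cells. These 135 cells at 0 allow a share of up to 2.22%, and within the groups up to 6.38%, 12.5%, 10.7% and 8.33%, respectively. In LB EPI, NODAL was over 1 TPM in 11 of 25 cells (44%, exact Clopper-Pearson 95% interval 24.4 to 65.1). In Sph EPI, it was over 1 TPM in 39 of 48 cells (81.2%, interval 67.4 to 91.1). In Sph HYPO, 6 of 12 cells held it (50.0%, interval 21.1 to 78.9). The intervals and limits, for both ligands, treat cells as independent draws and cover counting error only. Cells share embryos, and the share with NODAL in Sph EPI ran from 50.0% in embryo E to 94.7% in embryo F. The libraries also carry no molecular identifiers. Cells with NODAL held much of it: the lowest, median and highest TPM among them were 46.7, 99.4 and 229 in LB EPI, 1.09, 104 and 283 in Sph EPI, and 50.3, 81.7 and 259 in Sph HYPO. Cells of these 3 types were therefore either at 0 or well above the threshold, apart from 2 Sph EPI cells under 10 TPM. After each cell was thinned to 1000000 counts, a NODAL count was still present in 11 LB EPI, 39 Sph EPI and 6 Sph HYPO cells. With the added rows divided by 2 first, the Sph EPI number was 38. By library pool, NODAL was found in 3 of 12 LB EPI cells of the first 4 pools and 8 of 13 of the last 4, in 21 of 26 and 18 of 22 Sph EPI cells, in 4 of 5 and 2 of 7 Sph HYPO cells, and in no LB HYPO cell of either set of pools.

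GDF3, in contrast, was found in all 7 cell types. It was over 1 TPM in 32 of 47 morula cells (68.1%, interval 52.9 to 80.9), 14 of 24 EB ICM cells (58.3%, interval 36.6 to 77.9) and 12 of 28 EB TE cells (42.9%, interval 24.5 to 62.8). The share was 17 of 25 cells in LB EPI (68.0%, interval 46.5 to 85.1) and 44 of 48 cells in Sph EPI (91.7%, interval 80.0 to 97.7). LB HYPO had the lowest share, with 4 of 36 cells (11.1%, interval 3.11 to 26.1), while Sph HYPO had 9 of 12 (75%, interval 42.8 to 94.5). Most of the GDF3 counts in LB HYPO came from 1 cell of embryo AO, which held 141 of 161 counts and reached 170 TPM. After thinning to 1000000 counts, a GDF3 count was present in 17 LB EPI and 5 LB HYPO cells. By library pool, GDF3 was over 1 TPM in 7 of 12 LB EPI cells of the first 4 pools and 10 of 13 of the last 4, and in 3 of 23 and 1 of 13 LB HYPO cells. Mean TPM over cells was 381 in Sph EPI and 419 in Sph HYPO, 173 in LB EPI, 65.4 in morula, 61.0 in EB ICM, 48.8 in EB TE and only 5.14 in LB HYPO.

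**Figure D1:**
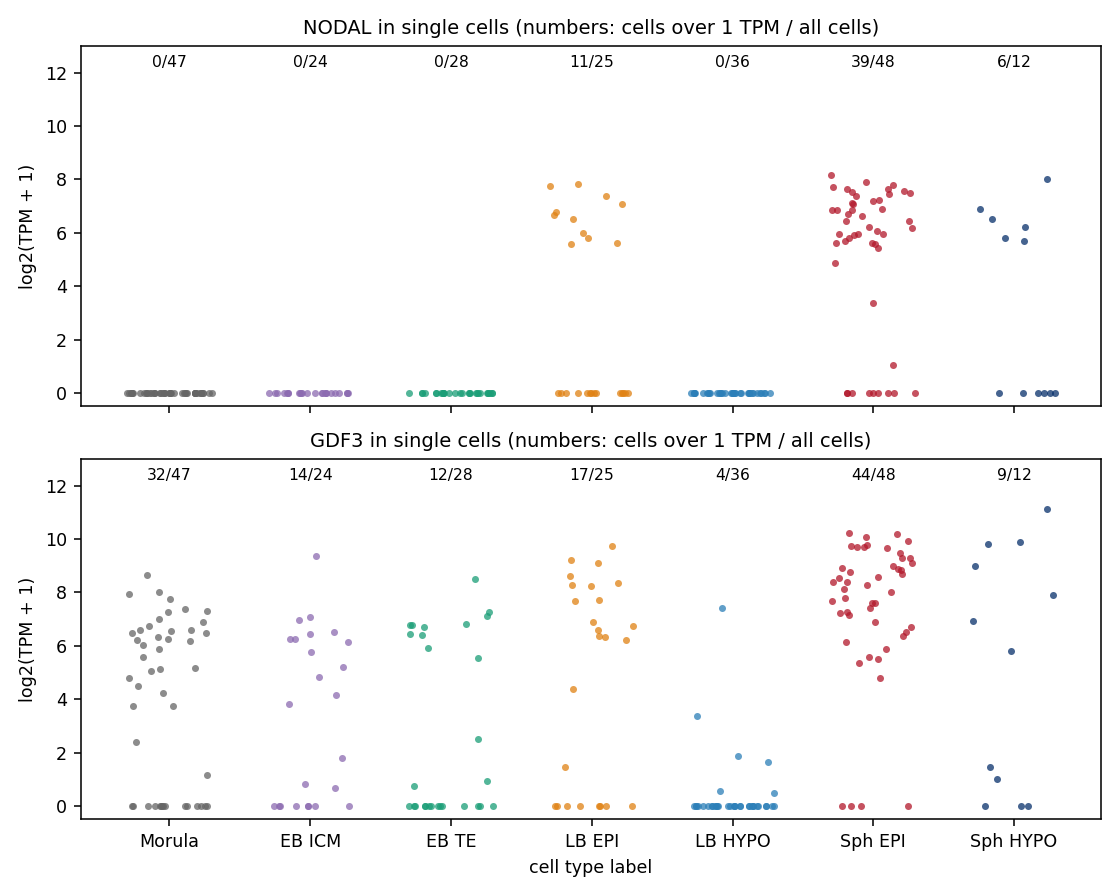
NODAL (upper panel) and GDF3 (lower panel) in each cell, as log2(TPM + 1) on the vertical axis by cell type label on the horizontal axis, 1 point per cell. NODAL lies at 0 in all morula, EB ICM, EB TE and LB HYPO cells and is split between 0 and high values in LB EPI (11 of 25 cells), Sph EPI (39 of 48) and Sph HYPO (6 of 12). GDF3 is spread over all cell types and sparse only in LB HYPO (4 of 36).

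Cells of an embryo are not independent, so levels were compared over embryos, as the mean over an embryo's cells of log2(TPM + 1). In LB EPI, the NODAL level was 6.38 in embryo AN, 3.76 in AO, 1.86 in AP and 2.65 in AQ (mean 3.66 ± 1.97, SD, n = 4). In Sph EPI, it was 3.63 in embryo C, 6.02 in D, 3.63 in E and 6.34 in F (4.90 ± 1.48, n = 4). Embryos of LB and Sph overlapped, with AP and AQ below every Sph embryo and AN above them. The share of positive cells was 2 of 2 in AN, 3 of 5 in AO, 2 of 8 in AP and 4 of 10 in AQ, and 9 of 14 in C, 10 of 11 in D, 2 of 4 in E and 18 of 19 in F. In Sph HYPO, the level was 7.26 in embryo C, 0 in E and 3.07 in F (3.44 ± 3.64, n = 3). Embryo C contributed 2 HYPO cells, both with NODAL. Embryo E contributed 2 without it, and 4 of the 8 HYPO cells of embryo F held it.

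The GDF3 level in LB EPI was 4.31 in AN, 6.02 in AO, 4.10 in AP and 5.04 in AQ (4.87 ± 0.87, n = 4). In Sph EPI, it was 8.81 in C, 4.53 in D, 6.13 in E and 8.39 in F (6.96 ± 2.01, n = 4). Embryo D thus had one of the higher NODAL levels of Sph EPI and the lowest GDF3 level, whereas embryo C had a low NODAL level and the highest GDF3 level. Sph HYPO had 8.87 in C, 4.49 in E and 4.53 in F (5.96 ± 2.51, n = 3), which overlapped Sph EPI. LB HYPO had 0.27 in AM, 0.72 in AO and 0 in AL, AN and AP (0.20 ± 0.31, n = 5), below every embryo of LB EPI and of Sph HYPO. In morula, the lowest and highest levels were 2.59 and 5.56 (3.81 ± 1.11, n = 8), in EB ICM 0 and 5.82 (2.91 ± 2.45, n = 7) and in EB TE 0 and 6.53 (2.33 ± 2.35, n = 10). Every morula embryo therefore held GDF3, while EB embryos ranged from none to levels as high as those of LB EPI. Of the EB embryos at 0, those of ICM were represented by 1 cell each.

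**Figure D2:**
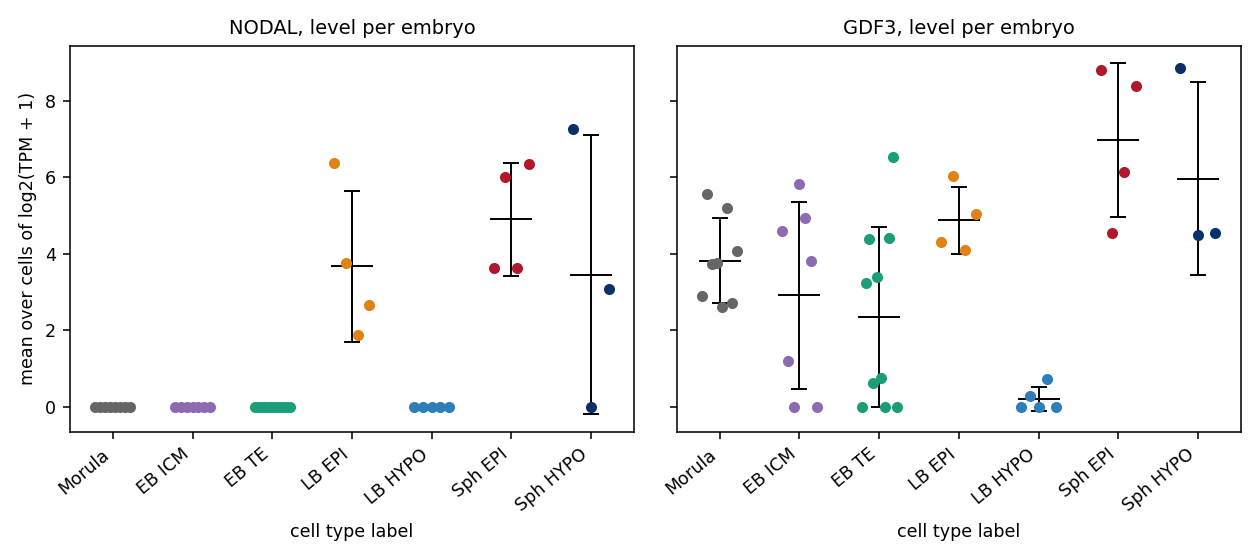
Level of NODAL (left) and GDF3 (right) per embryo, the mean over its cells of log2(TPM + 1), by cell type label. Each point is 1 embryo, the long bar is the mean over embryos and the whiskers are 1 SD. The NODAL means are 3.66 in LB EPI, 4.90 in Sph EPI and 3.44 in Sph HYPO, with embryo E of Sph HYPO at 0. The GDF3 level of LB HYPO, 0.20, lies below all other groups.

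By mean level, NODAL was ordered as Sph EPI, LB EPI, Sph HYPO and then the 4 cell types at 0. GDF3 was ordered as Sph EPI, Sph HYPO, LB EPI, morula, EB ICM, EB TE and LB HYPO. All 9 pairs of neighbours in these orders overlapped between embryos. A two-sided exact permutation test over embryos, adjusted over the 9 pairs (Benjamini-Hochberg), separated none of them, with adjusted p from 0.4 to 0.971. With 4 embryos against 3, the smallest p such a test allows is 0.0571. On counts summed per embryo, as log2(CPM + 1), where CPM is the count scaled to library size, GDF3 was higher in LB EPI than in morula (adjusted exact permutation p = 0.0364), and the order of Sph EPI and Sph HYPO was turned round. The position of neighbouring groups was thus not fixed beyond the spread between embryos, apart from that pair on the CPM scale.

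At the late blastocyst, the comparison of EPI with HYPO asked which ligands mark the emerging epiblast. Tests used 1 summed count profile per embryo and cell type and edgeR's quasi-likelihood test, adjusted over 14721 genes (Benjamini-Hochberg, threshold 0.05). Of all genes, 1.92% were called between LB EPI and LB HYPO. In LB EPI, NODAL was at 30.3 CPM in AN, 18 in AO, 14 in AP and 16 in AQ, and it was at 0 in all 5 HYPO embryos. NODAL was called higher in EPI (edgeR adjusted p = 0.0421), with 440 fragments in EPI and none in HYPO. Over pooled fragments this is at least 187-fold higher, counted against a floor of 3 fragments over the whole group. Fragments of 1 cell are not independent, so this is no bound over cells or embryos. Over cells, the share with NODAL was 44% in EPI, and the HYPO cells at 0 allow up to 8.33%. The call was narrow: leaving out any of the 9 embryo sums gave adjusted p from 0.0525 to 0.11 in edgeR. Every LB EPI embryo held NODAL counts and no LB HYPO embryo did. The exact permutation of embryo levels gave p = 0.0159, the smallest p possible for 4 against 5, and 0.0635 when adjusted over 12 such tests. With counts of the added rows divided by 2, the adjusted p of edgeR was 0.0852, and over all 12 alternatives the adjusted p ran from 1.31e-16 (DESeq2) to 0.775 (embryo as a block), with 5 calls.

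GDF3 in LB EPI was at 131 CPM in AN, 73.3 in AO, 102 in AP and 123 in AQ. In LB HYPO, it was at 0.514 in AM, 4.98 in AO and 0 in the other 3 embryos. The groups did not overlap, but the share of all genes without overlap was not counted, in this or any other comparison. The log2 fold change of EPI over HYPO was 6.21 ± 1.49 (SE), which narrowly missed the threshold (edgeR adjusted p = 0.0545, exact permutation p = 0.0159, 0.0635 when adjusted). Without the HYPO sum of embryo AO, whose GDF3 came almost wholly from 1 cell, the edgeR adjusted p was 0.00821. GDF3 was also called by DESeq2 (adjusted p = 8.22e-05) and by limma on embryo levels (adjusted p = 0.00242), and over 12 alternatives the adjusted p ran from 8.22e-05 to 0.448, with 5 calls.

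In spherical embryos, neither ligand was called between EPI and HYPO, at a stage where 1.13% of genes were. NODAL in Sph EPI was at 24.7 CPM in C, 38.9 in D, 25.6 in E and 44.4 in F, and in Sph HYPO at 63.9 in C, 0 in E and 12.4 in F. The log2 fold change of EPI over HYPO was 0.48 ± 1.49 (edgeR adjusted p = 0.948), beside a median of 0.57 over all genes. GDF3 in Sph EPI was at 514 CPM in C, 44.3 in D, 144 in E and 287 in F, and in Sph HYPO at 381 in C, 158 in E and 252 in F. Its log2 fold change was -0.01 ± 0.71 (edgeR adjusted p = 1.0). With standard errors of this size, a difference in either direction could not be told from none. For NODAL, HYPO held both the highest and the lowest embryo of the stage. The change in the EPI to HYPO difference between LB and Sph was tested as an interaction, for which 0.0408% of genes were called. The interaction was 10.72 ± 2.47 for NODAL and 6.22 ± 1.54 for GDF3 on the log2 scale, and neither was called (edgeR adjusted p = 0.236 for both). Since no LB HYPO sum held NODAL, the size of its interaction depends on the prior count of the fit and is no estimate of a fold.

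Along the pluripotent lineage, NODAL was absent in ICM and present in EPI. Between EB ICM and LB EPI, 2.91% of genes were called, and NODAL was among those higher in LB EPI (edgeR adjusted p = 0.0222). Over pooled fragments the fold was at least 151, with 440 fragments in EPI and none in ICM, and no embryo overlapped (share of all genes not counted). This too is no bound over cells, where the share was 44% in LB EPI and ICM allows up to 12.5%. Without LB EPI embryo AO, AP or AQ, the adjusted p was 0.0544, 0.0611 or 0.0587, and the exact permutation over embryos gave p = 0.00606 (0.0635 when adjusted). GDF3 was not called between the same groups, with a log2 fold change of ICM over LB EPI of -1.94 ± 1.19 (edgeR adjusted p = 0.375). Between LB EPI and Sph EPI, where 0.156% of genes were called, the log2 fold change of LB over Sph was -0.84 ± 0.72 for NODAL (edgeR adjusted p = 0.70) and -1.29 ± 0.60 for GDF3 (edgeR adjusted p = 0.372). Both ligands had the higher mean in Sph EPI, and embryos of the 2 stages overlapped.

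In the earlier embryo, only GDF3 could be compared. Between morula and EB ICM, where 2.45% of genes were called, its log2 fold change was 0.40 ± 0.97 (edgeR adjusted p = 0.944). Between EB ICM and EB TE, where 0.754% of genes were called, it was 0.18 ± 1.46 (edgeR adjusted p = 1.0). In both cases the direction turned under other settings, and the spread within each group covered most of the range seen.

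The hypoblast was then compared between LB and Sph, where 0.163% of all genes were called. Stage and inferred sex were confounded in this comparison, with mostly female cells at LB and only male cells at Sph. NODAL was at 0 in all 5 LB HYPO embryos and, as given above, at 63.9, 0 and 12.4 CPM in the 3 Sph HYPO embryos. Over pooled fragments it was at least 207-fold higher in Sph HYPO (242 fragments against none), which is no bound over cells or embryos. Embryo E held none, the groups overlapped, and the difference was not called (edgeR adjusted p = 0.341). GDF3 was at 0 to 4.98 CPM in LB HYPO and at 158 to 381 CPM in Sph HYPO, without overlap (share of all genes not counted). Its log2 fold change of LB over Sph was -7.75 ± 1.47 (edgeR adjusted p = 0.0575, exact permutation p = 0.0357, 0.107 when adjusted), and without LB HYPO embryo AO the edgeR adjusted p was 0.00297. Keratins of the trophectoderm marker list moved with this comparison. The summed TPM of the list's 8 genes, most of it from KRT8 and KRT18, was 997 to 5099 in LB HYPO cells and 15591 to 70554 in Sph HYPO cells. KRT8 and KRT18, keratins of simple epithelia, were higher in Sph HYPO, with log2 fold changes of LB over Sph of -3.92 ± 0.25 and -4.31 ± 0.48 (edgeR adjusted p = 2.85e-06 and 0.000978). The trophectoderm regulators GATA2 and CDX2 were over 1 TPM in 0 of 12 Sph HYPO cells, while GATA3 was in 9 of 12. CDX2 was over 1 TPM in only 1 of 28 EB TE cells, so its absence here cannot tell the lineages apart. None of GATA2, GATA3, TFAP2A, TEAD1 and CLDN4 was called. In LB HYPO and Sph HYPO, mean TPM was 17.9 and 1.49 for TFAP2A, 26.5 and 16.4 for TEAD1, and 0.931 and 0.014 for GATA2. These 3 thus had the higher mean in LB HYPO. GATA3 and CLDN4 had the higher mean in Sph HYPO. In the same order, mean TPM was 1.827 and 29.423 for GATA3 and 214.129 and 702.871 for CLDN4. The part of these markers in the result was not tested.

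Cells were also counted by which of the ligands they held. In LB EPI, 8 cells held both, 3 held NODAL alone, 9 held GDF3 alone and 5 held neither. In Sph EPI, the numbers were 35, 4, 9 and 0, and in Sph HYPO they were 5, 1, 4 and 2. GDF3 was present in 72.7%, 89.7% and 83.3% of the NODAL cells of these 3 types, beside 68.0%, 91.7% and 75% of all their cells. NODAL was present in 47.1%, 79.5% and 55.6% of the GDF3 cells, beside 44%, 81.2% and 50% of all cells. The shares within and over all cells were thus close in both EPI groups. Shares of cells with each transcript depend on depth and on dropout, and cells of 1 embryo share their source, so no test was run over cells.

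Per embryo, mean TPM of GDF3 exceeded that of NODAL (divided by 2) in every embryo that held both. In Sph EPI embryo D this held for the mean only, since the median TPM was 57.0 for NODAL (divided by 2) and 47.4 for GDF3. GDF3 was the higher in 3 of the 7 cells of D with both. In LB EPI, the ratio of GDF3 to NODAL was 4.63 in AN, 4.54 in AO, 8.42 in AP and 7.89 in AQ. In Sph EPI, it was 21.1 in C, 1.44 in D, 5.82 in E and 7.28 in F, and in Sph HYPO 6.58 in C and 22.7 in F. Sph EPI therefore contained both the most balanced embryo and one of the most skewed. The difference between embryos D and C came mainly from GDF3, whose median TPM over EPI cells was 47.4 in D, 231 in E, 370 in F and 635 in C. In TPM, which is per length, the ratio still depends on the length the authors gave to the added NODAL entry. That length was 0.549 of the GDF3 length, as implied by 48 cells.

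**Figure D3:**
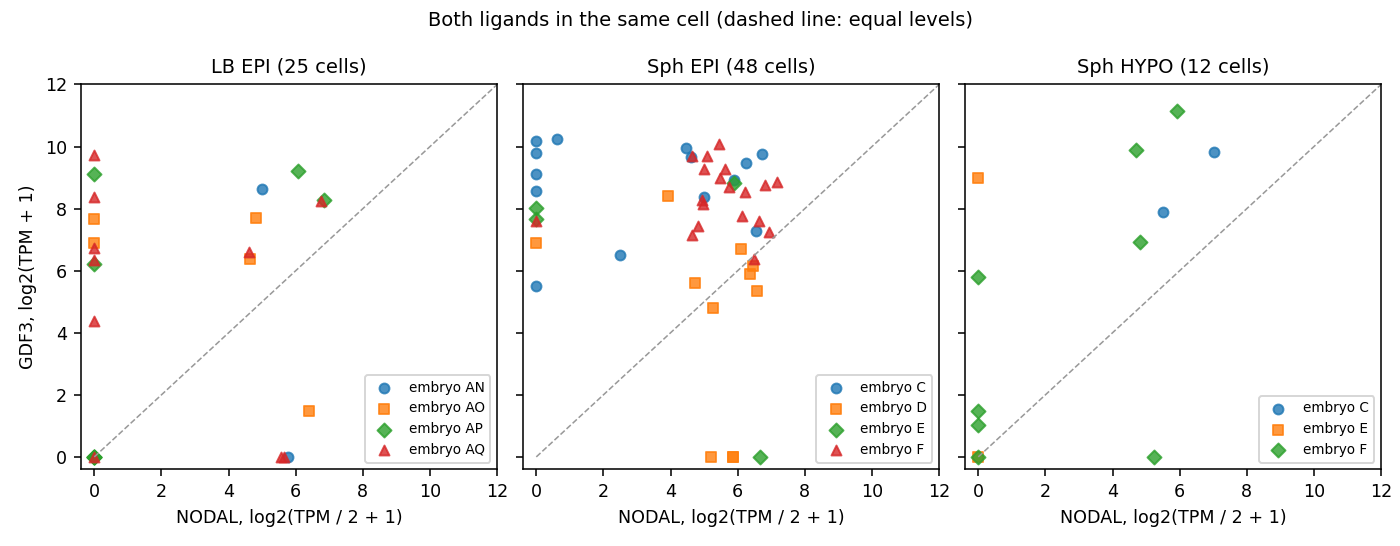
NODAL as log2(TPM / 2 + 1) on the horizontal axis against GDF3 as log2(TPM + 1) on the vertical axis in each cell of LB EPI, Sph EPI and Sph HYPO, with embryos by colour and symbol. The dashed line marks equal levels. Most cells with both ligands lie above it, and the cells of Sph EPI embryo D lie closest to it (ratio of embryo means 1.44). Points on the axes are cells with 1 of the ligands.

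The 6 NODAL cells labelled Sph HYPO were looked at one by one, since NODAL was otherwise found only in EPI. In embryo C, they were C3 with 178 NODAL counts (259 TPM) and C4 with 68 (89.4 TPM). In embryo F, they were F1 with 36 counts (50.3 TPM), F3 with 94 (119 TPM), F5 with 62 (54.2 TPM) and F8 with 46 (74.0 TPM). GDF3 in these cells was at 907 TPM in C3, 239 in C4, 957 in F1, 2242 in F3 and 120 in F5, and it was listed at 0 in F8. Of the 6 cells without NODAL, E6 had 504.4 TPM of GDF3, F7 had 55.0, F6 and F4 were at 1.77 and 1.03, and E8 and F2 had none. All 6 NODAL cells held 6 to 8 of the 8 hypoblast markers, and over all 12 Sph HYPO cells the number was 4 to 8. The epiblast markers PRDM14, SALL2, SFRP2 and ETV1 were over 1 TPM in 0 of the 12 cells.

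Of 7 matched genes that Nodal signalling is known to induce, T was at 0 in every cell type. The other 6 were found in these Sph HYPO cells. EOMES, a T-box factor of mesendoderm, was over 1 TPM in 10 of 12 Sph HYPO cells, including all 6 with NODAL. LHX1, a homeobox factor of the anterior visceral endoderm and the organizer, was in 9 cells, also including all 6. GSC, an organizer homeobox gene, was in 5 cells and MIXL1, a homeobox gene of mesendoderm, in 4, and each of these held NODAL. FOXA2, a forkhead factor of endoderm, was in 9 cells, 5 of them with NODAL, and OTX2, a homeobox factor of epiblast and anterior endoderm, in 7 cells, 5 of them with NODAL. The Sph HYPO values are joint counts over 12 cells of 3 embryos, 8 of them from embryo F, and carry no test. In Sph EPI, where 39 of 48 cells held NODAL, OTX2 was in 48 cells and EOMES in 13. LHX1 was in 4 of those EPI cells, GSC in 2, and MIXL1 and FOXA2 in 0. GSC was also in 19 of 47 morula cells and 15 of 24 EB ICM cells, groups with no NODAL count.

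The other genes of the pathway were taken from a list of 47, of which 33 could be matched to an entry and 30 were tested. The 14 genes that were not matched include the co-receptors TDGF1 and CFC1, the antagonists LEFTY1, LEFTY2, CER1 and DAND5, and the activin subunits INHBA and INHBB, and they were not analysed here. Leaving out NODAL and GDF3, 28 genes remained. Between LB EPI and LB HYPO, edgeR called 0 of 28, against 1.92% of all genes, although 9 had an unadjusted p under 0.05 (as did 2943 of all 14721 genes), and DESeq2 called 5 and limma 3 (9.24% and 4.73% of all genes). The median log2 fold change of the list was -0.12, beside 0 over all genes. Between Sph EPI and Sph HYPO, edgeR also called 0 of 28, with 7 at an unadjusted p under 0.05 (15.2% of all genes), and 7 called by DESeq2 and 3 by limma (9.87% and 2.49% of all genes). EdgeR also called 0 of 28 for EB ICM against EB TE, with 5 at an unadjusted p under 0.05 (18.9% of all genes), 0 called by DESeq2 (3.04%) and 2 by limma (1.54%). For morula against EB ICM it again called 0, with 5 at an unadjusted p under 0.05 (23.4% of all genes) and 2 called by DESeq2 (8.19%) and by limma (4.52%). For LB EPI against Sph EPI it called 0, with 6 at an unadjusted p under 0.05 (13.6%), 2 called by DESeq2 (5.73%) and 1 by limma (0.659%). The interaction gave 0 calls in edgeR, with 3 at an unadjusted p under 0.05 (10.8%) and 1 called by DESeq2 (3.67%) and by limma (1.16%).

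Among type I receptors, ACVR1B (ALK4), the main receptor of Nodal and activin, had a mean TPM of 1.63 in EPI and 7.36 in HYPO at LB, and of 0.259 and 8.94 at Sph. ACVR1C (ALK7), the alternative Nodal receptor, was at 1.16 TPM in EPI and 0 in HYPO at LB, and at 6.42 and 0 at Sph, over 1 TPM in 3 and 10 EPI cells and in no HYPO cell. At Sph, ACVR1C had the higher mean TPM in EPI and ACVR1B in HYPO, whereas at LB ACVR1B had the higher mean in both lineages, and neither gene was called at either stage. The LB log2 fold change was -3.29 ± 1.47 for ACVR1B (edgeR adjusted p = 0.249) and 6.50 ± 2.35 for ACVR1C (edgeR adjusted p = 0.229). Since ACVR1C was at 0 in LB HYPO, its value depends on the prior count of the fit and is no estimate of a fold. In the order of EPI then HYPO at LB, and EPI then HYPO at Sph, the type II receptor ACVR2A was at 22.9, 18.9, 22.1 and 72.9 TPM. In that order TGFBR1, the type I receptor of TGFβ, was at 90.6, 18.3, 57.1 and 39.4 TPM.

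FOXH1, the forkhead partner of the SMAD proteins at Nodal targets, was at 224 TPM in EPI and 133 in HYPO at LB and at 86.3 and 12 at Sph, and was over 1 TPM in all 25 LB EPI and all 36 LB HYPO cells. It was thus abundant in LB HYPO, where NODAL was absent, and its mean was lower in Sph HYPO than in the other 3 groups. In the same order of the 4 groups, SMAD2 was at 39.9, 46, 86.6 and 151 TPM and SMAD4 at 17.4, 19.8, 27.3 and 27.3 TPM. SMAD3 was low in EPI (0.513 and 0.171 TPM) and higher in HYPO (4.76 and 10.7 TPM), but it was not called at LB (-4.91 ± 2.23, edgeR adjusted p = 0.249) or at Sph (-6.89 ± 2.09, edgeR adjusted p = 0.172).

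FST, or follistatin, a secreted antagonist of activin, was at 7.39 TPM in EPI and 82.2 in HYPO at LB, and at 96.2 and 192 at Sph. BAMBI, a pseudoreceptor that dampens TGFβ signals, was at 75 and 7.16 TPM at LB and at 21.6 and 14.8 at Sph. At LB the pair lay in opposite directions, with log2 fold changes of -4.31 ± 1.27 for FST (edgeR adjusted p = 0.13) and 3.23 ± 1.08 for BAMBI (edgeR adjusted p = 0.178). TGIF1, a nuclear corepressor of SMAD2, was at 499 and 92.7 TPM at LB and at 411 and 299 at Sph.

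Of the pathway genes other than the ligands, 3 were called in any comparison. OTX2 was higher in EB ICM than in LB EPI (mean TPM 808 and 187), by 2.58 ± 0.43 on the log2 scale (edgeR adjusted p = 0.00363), the reverse of the direction of NODAL. It was the only call among 28 there (3.57%, against 2.91% of all genes). In that comparison 8 list genes had an unadjusted p under 0.05 (22.6% of all genes), and DESeq2 called 4 (9.38%) and limma 3 (6.58%). EOMES and LHX1 were higher in Sph HYPO than in LB HYPO, 2 of 28 genes (7.14%) against 0.163% of all. Between these stages 7 list genes had an unadjusted p under 0.05 (9.52% of all genes), and DESeq2 called 4 (2.28%) and limma 0 (0.163%). EOMES, also an added row, was at 187 CPM in embryo C, 18.8 in E and 75.6 in F, and among LB HYPO embryos 4 counts in AM were the only ones. LHX1 was at 273 CPM in C, 12.3 in E and 23.5 in F, and 1 count in AM was the only one in LB HYPO. For both genes every Sph HYPO embryo lay above every LB HYPO embryo, and embryo C, which had the highest NODAL, was the highest. The share of all genes separated in this way was not counted. The edgeR adjusted p was 0.0335 for EOMES and 0.0162 for LHX1, but without embryo C it was 0.17 and 0.364. With the added rows divided by 2, EOMES was not called (edgeR adjusted p = 0.0806), which leaves LHX1 as the only call. EOMES kept the call in 2 of the 8 fits that left out 1 embryo, and LHX1 in 6 of 8, the other loss being without LB HYPO embryo AM (0.0811). Limma called neither. MIXL1, at 63.9 CPM in C, 0 in E and 2.46 in F, followed the same order of embryos as NODAL, as did GSC at 32.7, 0 and 4.71 CPM. OTX2 and FOXA2 did not follow that order. OTX2 was at 9.093 CPM in C, 2.598 in E and 340.94 in F, and FOXA2 at 15.589, 15.263 and 11.977 CPM. Embryos C and E held 2 HYPO cells each, and no test of the order was run. Neither MIXL1 nor GSC was called between the HYPO stages (edgeR adjusted p = 0.373 and 0.467). OTX2 and FOXA2 were not called either (edgeR adjusted p = 0.7946 and 0.5305).

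**Figure D4:**
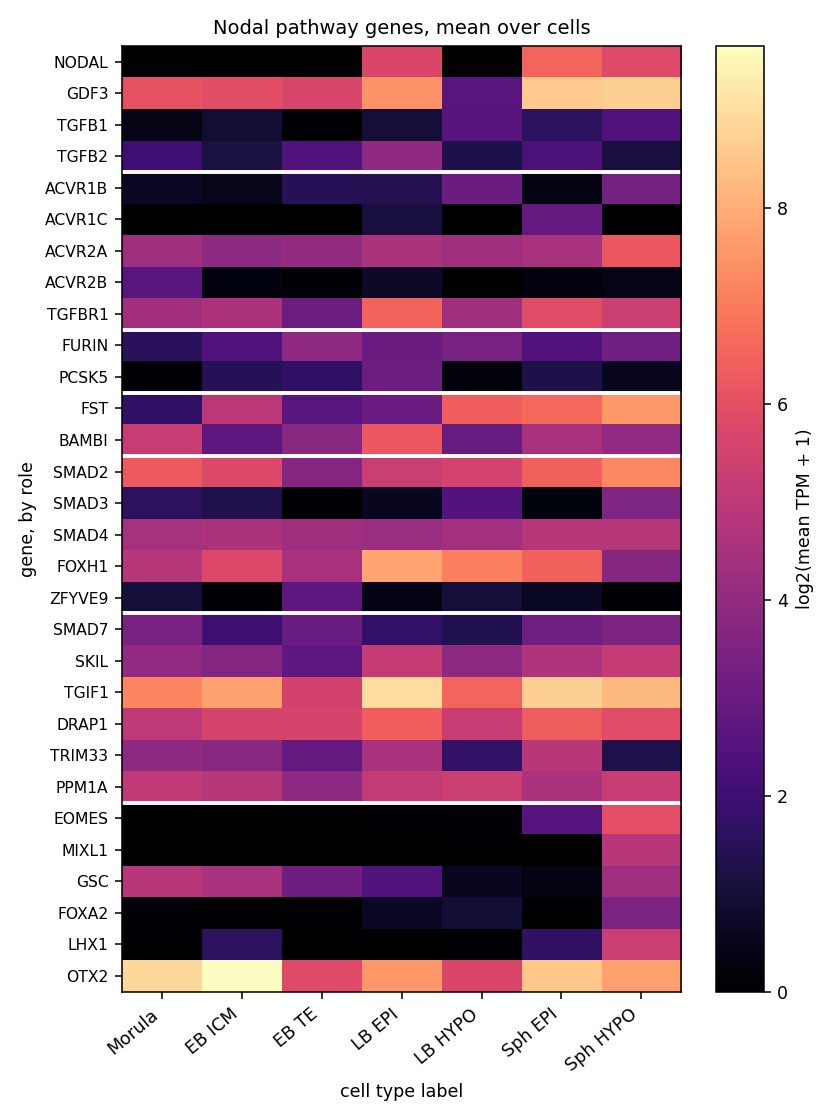
Mean TPM over cells, as log2(mean TPM + 1) in colour, of the tested pathway genes (rows, in blocks from ligands to targets) in the 7 cell types (columns). NODAL and EOMES are shown as deposited, without division by 2. NODAL is dark in morula, EB ICM, EB TE and LB HYPO, EOMES and MIXL1 stand out in Sph HYPO (61.4 and 28.6 TPM), and OTX2 is brightest in EB ICM (808 TPM).

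Genes whose pattern was most like that of the ligands were sought by Pearson's r of log2(CPM + 1) over the 41 sums, among 9410 genes with a symbol. This is a description over sums that share embryos and depth. For NODAL, the leading genes were KIF5C, a kinesin of neurons (r = 0.94), ABTB3 (0.93), VIM, the intermediate filament vimentin (0.91), FAM171B (0.91), UCHL1, a ubiquitin hydrolase of neurons (0.90), and QSER1 (0.89). All 6 had a mean log2(CPM + 1) of at least 4.79 in both EPI groups and of at most 3.54 in the cell types without NODAL. That of KIF5C was 8.07 in LB EPI, 8.93 in Sph EPI and 3.74 in Sph HYPO, and at most 1.23 elsewhere. For GDF3, likeness was weaker, led by ATF1, a CREB-family transcription factor (0.77), RAB34 (0.74), SYNE2, a nuclear envelope protein (0.70), PLA2G7 (0.69), PPM1B (0.67) and ILKAP (0.66). NODAL and GDF3 had an r of 0.59 with each other, which placed GDF3 at rank 416 for NODAL and NODAL at rank 32 for GDF3.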

How the data were processed

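Raw paired-end reads of single-cell Smart-seq2 libraries were trimmed, aligned to the pig genome with HISAT2 2.1.0 and counted per gene with HTSeq by the authors, who deposited raw counts per gene and cell. The authors also deposited the TPM values they derived from the counts, and both tables were used as deposited. The files follow the Sscrofa10.2 assembly, and the gene table used here for symbols (11437 Ensembl entries matched) belongs to another assembly, so no coordinates or sequences are given. Depth was 1012604 to 5696373 counts per cell, from 8 library pools, and no 2 cells had identical counts.

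Groups were taken from the cell type labels. Counts were summed per embryo and cell type (41 sums) and tested with glmQLFit and glmQLFTest in edgeR 4.0.16 (R 4.3.3) with TMM, on the 14721 genes that passed 1 TPM in 3 cells or more, with only the groups compared in each fit. P-values were adjusted by Benjamini-Hochberg with a threshold of 0.05, and the SE is the log2 fold change divided by the square root of F. The study tested single cells as replicates, and that test was not used, since the embryo is the replicate here. The animals behind each embryo are not named in the labels, so p-values measure the spread between embryos, which may share a litter. Exact permutation tests and intervals used scipy 1.17.1 (Python 3.11.15), plots matplotlib 3.10.9, and the pseudocount was 1 throughout. Alternatives were DESeq2 1.42.0, limma 3.58.1 with a trend on embryo levels, other size factors, no filter, embryo as a block, all groups in 1 fit, sums of at least 2 cells, library pools apart, and each embryo left out. After the data were seen, division of the 16 added rows by 2 and exact permutation of each comparison were added.

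Genes named are NODAL, GDF3, the tested genes of a pathway list, cell type markers and, for each ligand, the 6 genes most like it over the sums. Members and lists were chosen with earlier results of these data known. Single cells and joint counts in Sph HYPO were described after their values were seen. On simulated data of 14721 genes with 200 changed by 8-fold, the edgeR test of LB EPI against LB HYPO recovered 40.5% with each gene's own dispersion, with 12.9% of calls false, and 50.5% with the trend of dispersion, with 2.88% false. For Sph EPI against Sph HYPO, the values were 42.5% with 19% false and 22.5% with none false. Embryo letters are shared between lineages (7 embryos at EB, 3 at LB, 3 at Sph). Deviations of sums from the same embryo correlated at -0.048 to 0.159, 0.023 to 0.086 and 0.015 to 0.246 over 4307 genes.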

Additional observations from a re-analysis of the deposited data

Results flagged for a closer look

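The morula cell AO23_e5 carried no embryo letter of the morula stage and entered no test over embryos. GDF3 was at 94.5 TPM in it, within the range of the other morula cells, and this value was listed because it lies outside the comparisons. Of the 8 groups of embryo levels tested for a single outlying embryo, none was marked.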

How the results depend on the processing

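Values here are adjusted p. The call of NODAL in LB EPI over LB HYPO was lost with limma (0.056), sums of at least 2 cells (0.0525), the first and last 4 pools (0.282 and 0.352), added rows divided by 2 (0.0852) and exact permutation (0.0635), and DESeq2 gave 1.31e-16. NODAL in EB ICM against LB EPI lost it in the first and last 4 pools (0.214 and 0.0956) and by exact permutation (0.0635). GDF3 at LB was called without TMM (0.0401), with DESeq2 size factors (0.039), with no filter (0.0462), by DESeq2 (8.22e-05) and by limma (0.00242). GDF3 between the HYPO stages was called without TMM (0.0433), with DESeq2 size factors (0.0413), with no filter (0.0316), by DESeq2 (0.000788) and in the first 4 pools (0.00154). DESeq2 alone called NODAL between the HYPO stages (0.0285) and the interactions of NODAL (6.64e-05) and GDF3 (0.00105). Directions turned for NODAL at Sph (first 4 pools, 0.979) and GDF3 at Sph (limma 0.726, last 4 pools 0.921, exact permutation 0.686), in ICM against TE (last 4 pools, 1.0) and in morula against ICM (at least 2 cells, 1.0, and first 4 pools, 0.939), and for GDF3 in Sph EPI over Sph HYPO on the CPM scale (0.743). The cause of these changes was not tested. The share of LB HYPO cells with GDF3 over 10 TPM was 2.78%. Among the pathway genes, over 10 alternatives each, OTX2 in ICM against LB EPI was called in 8 and EOMES and LHX1 between HYPO stages in 5 and 7. NODAL held no count in either group of ICM against TE and morula against ICM, so these gave no value.

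Embryo numbers shared between lineages were tried as a replicate block, although not every pair of sums correlated. With the block, the adjusted p at LB was 0.775 for NODAL and 0.387 for GDF3, at Sph 0.846 and 0.972 (GDF3 turned), in ICM against TE 1.0 for GDF3, and for the interaction 1.0 and 0.27.

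Leaving out 1 embryo sum at a time gave, for NODAL, 0.0525 to 0.11 at LB, 0.576 to 1.0 at Sph (turned without HYPO E), 0.0225 to 0.0611 in ICM against LB EPI, 0.512 to 0.938 in LB against Sph EPI, 0.213 to 0.559 between HYPO stages and 0.0581 to 0.47 for the interaction. For GDF3 it gave 0.00821 to 0.13 at LB, 0.776 to 1.0 at Sph (turned in 4 of 7), 1.0 throughout in ICM against TE (turned in 4 of 17), 0.709 to 1.0 in morula against ICM, 0.251 to 0.519 in ICM against LB EPI, 0.35 to 0.818 in LB against Sph EPI, 0.00297 to 0.137 between HYPO stages and 0.0165 to 0.47 for the interaction, where the calls came without LB HYPO AO.

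Over all genes, the number called was 283 at LB (20 with the block to 1360 by DESeq2), 167 at Sph (82 with the block to 1453 by DESeq2), 111 in ICM against TE (9 in the last 4 pools to 865 with all groups in 1 fit), 361 in morula against ICM (38 in the first 4 pools to 1205 by DESeq2), 428 in ICM against LB EPI (123 in the first 4 pools to 1381 by DESeq2), 23 in LB against Sph EPI (7 to 843), 24 between HYPO stages (17 to 336) and 6 for the interaction (3 to 540). Leaving out 1 embryo sum gave 138 to 294 at LB, 78 to 583 at Sph, 58 to 184 in ICM against TE, 250 to 419 in morula against ICM, 239 to 428 in ICM against LB EPI, 11 to 41 in LB against Sph EPI, 17 to 110 between HYPO stages and 0 to 165 for the interaction, so the shares of all genes called, given as background, move with single embryos.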
